A study of Mus musculus with 6 samples.

Results

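The interferon-inducible GTPases were followed here through 9 mouse genes, taken by symbol from the array's own gene names. They were 6 immunity-related GTPases (IRG family: Igtp, Irgm1, Irgm2, Iigp1, Ifi47 and Tgtp1) and 3 guanylate-binding proteins (GBP family: Gbp2, Gbp3 and Gbp6). All probes that carry these names were used, 12 of 55660 probes on the array. Of the 9 genes, 6 had a probe bright enough to be tested, among 18228 genes tested in all.

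Both families are large GTPases that vertebrate cells make in response to interferons and that act on the membranes around intracellular pathogens. Effector IRG proteins bind and break the vacuole in which a parasite or bacterium lives, regulator IRG proteins hold the effectors inactive on the cell's own membranes, and GBP proteins assemble into coats on the same targets. Interferon-gamma acts through its receptor and the kinases Jak1 and Jak2 on genes with GAS elements, and type I interferons act through a complex that holds Stat2 and Irf9 and binds interferon-stimulated response elements (ISRE). In blood-forming cells the regulator Irgm1 is known for its part in keeping stem cells and autophagy in order under interferon.

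The samples were erythroid progenitors isolated from E14.5 mouse fetal liver, a bulk population, infected with retrovirus made in 293T cells. In 3 samples (shExosc8) the virus carried a hairpin against Exosc8, a core subunit of the RNA exosome, which degrades and trims RNA. In 3 samples (shControl) it carried a hairpin against luciferase, which mouse cells lack. All 6 were cultured for 3 days with erythropoietin, dexamethasone and medium from kit ligand-producing cells, so the controls share infection and medium with the knockdown. The labels give neither the strain nor whether the replicates of a group were separate animals or separate cultures. A p-value here therefore speaks only of the spread among these 6 samples, and that spread may be technical.

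Exosc8 itself gave a log2 signal of 0.47, 0.45 and 0.97 on shExosc8 replicates 1 to 3 and of 1.75, 1.74 and 1.83 on shControl replicates 1 to 3. All values here are log2 signals relative to each array's 75th percentile, so 0 is that percentile. Its signal fell to 45.3% of control (log2 fold change -1.14 ± 0.16, SE, n = 3 and 3, limma adjusted p = 0.00554), with the least reduction on shExosc8 replicate 3. The call was lost with the slide column as a block (-1.03, limma adjusted p = 0.124) and in the authors' deposited table (-1.06, adjusted p = 0.073). One array stood apart in detection: shControl replicate 2 had 67.3% of its spots well above background, and the other 5 arrays had 43.1% to 49.3%. Arrays of 1 group correlated at r = 0.985 to 0.997 over 21615 probes and arrays of different groups at 0.953 to 0.978. Each group occupied a slide row of its own, and the effect of row cannot be told apart from that of the hairpin.

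The promoters are shown first because the members differ in the interferon-response letters they hold and in how they moved. They are the 120 bases before the transcription start, 5′ to 3′ on the gene's strand, from RefSeq on GRCm38.p6. They lie at chr11:58199436-58199555 (+) for Igtp, chr11:58214857-58214976 (+) for Irgm2, chr11:48992247-48992366 (-) for Tgtp1, chr11:48871421-48871540 (-) for Irgm1, chr11:49076467-49076586 (+) for Ifi47, chr3:142620543-142620662 (+) for Gbp2 and chr3:142559924-142560043 (+) for the first start of Gbp3. Gbp6 and Iigp1 are not shown. Capitals mark matches to the ISRE core (GAAA, 2 bases of any kind, GAAA) on either strand and to the GAS letters TTCNNNGAA, which read the same on both strands.
Igtp: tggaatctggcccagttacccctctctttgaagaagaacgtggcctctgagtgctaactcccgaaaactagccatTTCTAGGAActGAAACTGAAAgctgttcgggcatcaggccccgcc
Irgm2: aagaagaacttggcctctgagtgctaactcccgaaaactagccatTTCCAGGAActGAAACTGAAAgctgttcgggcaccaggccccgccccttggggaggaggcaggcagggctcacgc
Tgtp1: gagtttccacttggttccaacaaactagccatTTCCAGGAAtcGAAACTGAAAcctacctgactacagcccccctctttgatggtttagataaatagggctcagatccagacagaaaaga
Irgm1: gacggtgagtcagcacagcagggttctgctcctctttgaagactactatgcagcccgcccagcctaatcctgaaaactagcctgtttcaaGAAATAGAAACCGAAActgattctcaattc
Ifi47: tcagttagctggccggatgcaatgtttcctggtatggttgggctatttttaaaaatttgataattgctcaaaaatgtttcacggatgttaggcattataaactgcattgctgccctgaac
Gbp2: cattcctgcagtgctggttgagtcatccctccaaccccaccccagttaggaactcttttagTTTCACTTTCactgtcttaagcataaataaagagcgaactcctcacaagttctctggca
Gbp3: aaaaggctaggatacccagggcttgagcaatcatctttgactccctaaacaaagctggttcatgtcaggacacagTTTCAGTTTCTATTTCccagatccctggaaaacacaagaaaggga
In Igtp, Irgm2 and Tgtp1 a GAS match was followed, after 2 bases, by an ISRE core match. The GAS match began at position -45 in Igtp, -75 in Irgm2 and -88 in Tgtp1, counted from the start site. Irgm1 held 2 overlapping ISRE matches beginning at -30 and -24 and no GAS match. Gbp2 held 1 ISRE match at -59 and Gbp3 held 2 overlapping ones at -45 and -39, all on the other strand. Neither motif was found for Ifi47, nor for the second start of Gbp3, in the 300 bases searched, 250 before to 50 after the start, and a match is only a description of letters.

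**Figure D1:**
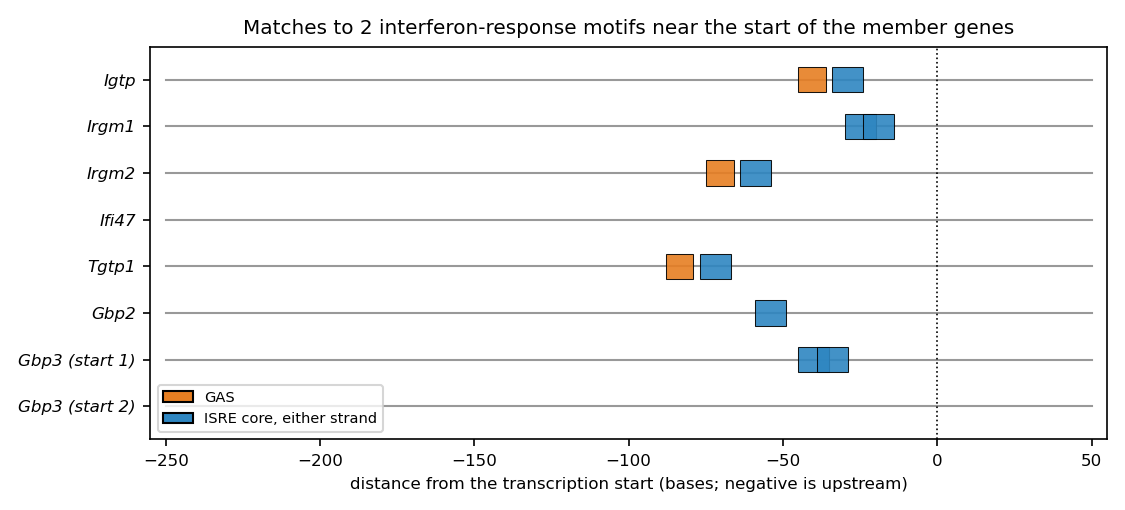
Position of motif matches in the promoters of 7 member genes, with distance from the transcription start in bases on the horizontal axis and 1 line for each start; orange boxes are GAS matches and blue boxes ISRE core matches. Igtp, Irgm2 and Tgtp1 each have both, side by side, and Ifi47 and the second start of Gbp3 have neither.

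Of the 6 measured genes, 3 rose in shExosc8 cells (Igtp, Ifi47 and Irgm2) and 0 fell. The rises were between 3.36-fold and 5.84-fold. In bulk samples such as these, a different number of cells of a type and a different amount of RNA per cell cannot be told apart. Irgm1, Iigp1 and Gbp6 did not pass the test (adjusted p of 0.125 to 0.968), and Tgtp1, Gbp2 and Gbp3 were too dim to be tested. Over all genes tested 29.8% passed, 16.0% upward and 13.8% downward, so the upward count of 3 in 6 stands against a background of 16.0%. All 3 were at least 2-fold higher, as were 10.1% of all genes tested. The median log2 fold change of the 6 was 0.865 and that of all genes tested -0.061. All 6 were well above background on every array of both groups, so none was measured only through the group in which it was high. The test was limma on the whole table with Benjamini-Hochberg adjustment at a threshold of 0.05. No member was lower at an unadjusted p under 0.05 either (0 of 6).

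Igtp (also called Irgm3) is a regulator IRG protein of the endoplasmic reticulum and lipid droplets. Its probe, at chr11:58020927-58020986 on the plus strand of mm9, read -0.48, -0.62 and -0.84 on shExosc8 replicates 1 to 3. On the shControl arrays it read -3.35, -3.09 and -3.15. The 3 shExosc8 values lay far above the 3 control values, with no overlap. The mean was -0.65 ± 0.18 (SD, n = 3) against -3.20 ± 0.14 (SD, n = 3), a 5.84-fold rise (log2 fold change 2.55 ± 0.14, SE, limma adjusted p = 0.000343). Relative to the control mean, the single shExosc8 arrays stood at 656%, 596% and 511%, and the control arrays between 89.9% and 108%. This probe is printed on 10 spots, and the SD of the log2 signal between spots of 1 array was 0.041 to 0.074, less than the SD between arrays. Among 18228 genes Igtp ranked 46 by p and 366 by the size of its rise.

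Ifi47 (also called Irgd) is an effector-type IRG protein. The probe, at chr11:48910402-48910461 (+, mm9), read -1.14, -0.88 and -1.35 in shExosc8 replicates 1 to 3. Control replicates 1 to 3 gave -3.63, -3.85 and -3.34. The groups did not overlap, and the lowest shExosc8 value was again that of replicate 3. Ifi47 rose 5.58-fold (log2 fold change 2.48 ± 0.18, SE, n = 3 and 3, limma adjusted p = 0.000701), the closest of the members to Igtp in size. Its single shExosc8 arrays stood at 550%, 661% and 477% of the control mean, and it ranked 163 by p.

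Irgm2 is a regulator IRG protein of the Golgi and of vacuole membranes. Its probe, at chr11:58036093-58036152 (+, mm9), read -3.60, -3.21 and -4.06 in shExosc8 replicates 1 to 3 against -5.54, -5.23 and -5.35 in the controls. Every shExosc8 array was above every control, and the shExosc8 values were spread more widely (SD 0.42, n = 3) than the controls (SD 0.16, n = 3). The rise was 3.36-fold (log2 fold change 1.75 ± 0.23, SE, limma adjusted p = 0.00396), at 342%, 447% and 249% of the control mean on single arrays. With the column of the slide as a block, which leaves 4 arrays to carry the difference, the log2 fold change was still 1.75 but the call was lost (limma adjusted p = 0.0845).

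Irgm1 is the regulator of the family with the strongest known tie to autophagy and to blood stem cells, and it did not pass the test. The brighter of its 2 probes, at chr11:48679069-48679128 on the minus strand of mm9, read -0.89, -0.54 and -1.33 in shExosc8 replicates 1 to 3. In the controls it read -0.54, -0.45 and -0.36. The lowest control and the highest shExosc8 array were nearly level, and the low shExosc8 mean owed most to replicate 3. The signal was 72.1% of control (log2 fold change -0.47 ± 0.21, SE, n = 3 and 3, limma adjusted p = 0.125). The second probe, at chr11:48679632-48679691, read -3.19, -3.08 and -2.94 against -2.89, -2.86 and -2.95, and here the groups overlapped. Its log2 fold change was -0.17 ± 0.11 (SE, limma adjusted p over probes 0.284). Both probes gave a value below 0, and neither passed the test. Scaled by the percentile over all probes, which moved the median of all genes by -0.146, Irgm1 was called lower (log2 fold change -0.62, limma adjusted p = 0.039).

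Iigp1 (also called Irga6) is the best studied effector, which oligomerises on vacuole membranes. Only 1 of its 2 probes was above background. That probe read -5.99, -5.50 and -5.06 in shExosc8 replicates 1 to 3 and -5.37, -5.07 and -5.11 in the controls. Replicate 1 of shExosc8 was the lowest of the 6 arrays and replicate 3 the highest, so the groups overlapped entirely. The log2 fold change was -0.34 ± 0.24 (SE, n = 3 and 3, limma adjusted p = 0.314), with a 95% interval of -0.92 to 0.25 at the probe level. Tgtp1 (also called Irgb6), another effector, was not well above background on any of the 6 arrays, and the accession of its probe belongs to Tgtp2 as well.

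Of the 3 GBP genes, only Gbp6 was measured, and none can be called changed. One Gbp6 probe, at chr5:105700056-105700115 (-, mm9), read -5.76, -4.64 and -5.74 in shExosc8 and -5.24, -5.08 and -5.75 in the controls. The shExosc8 arrays included the highest value and the lowest, and the groups overlapped. The log2 fold change was -0.02 ± 0.34 (SE, n = 3 and 3, limma adjusted p = 0.968) with a 95% interval of -0.85 to 0.81, which leaves room for changes of either sign. The other Gbp6 probe, shared with Gbp10 by accession, was not well above background on any array.

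Gbp2, a GBP that coats vacuoles and bacteria, was well above background on 1 of 3 shExosc8 arrays and on 0 of 3 controls. It read -6.99, -6.49 and -6.67 in shExosc8 against -7.74, -8.90 and -8.66 in the controls, the groups lying apart. In a fit without the filter on dim probes the limma adjusted p was 0.0538, so Gbp2 did not pass there. Gbp3 was detected on 2 of 3 shExosc8 arrays and 1 of 3 controls, at -6.25, -6.75 and -6.13 against -7.44, -6.60 and -7.95. Those groups overlapped, and the unfiltered fit gave 0.96 with an adjusted p of 0.179 (limma).

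**Figure D2:**
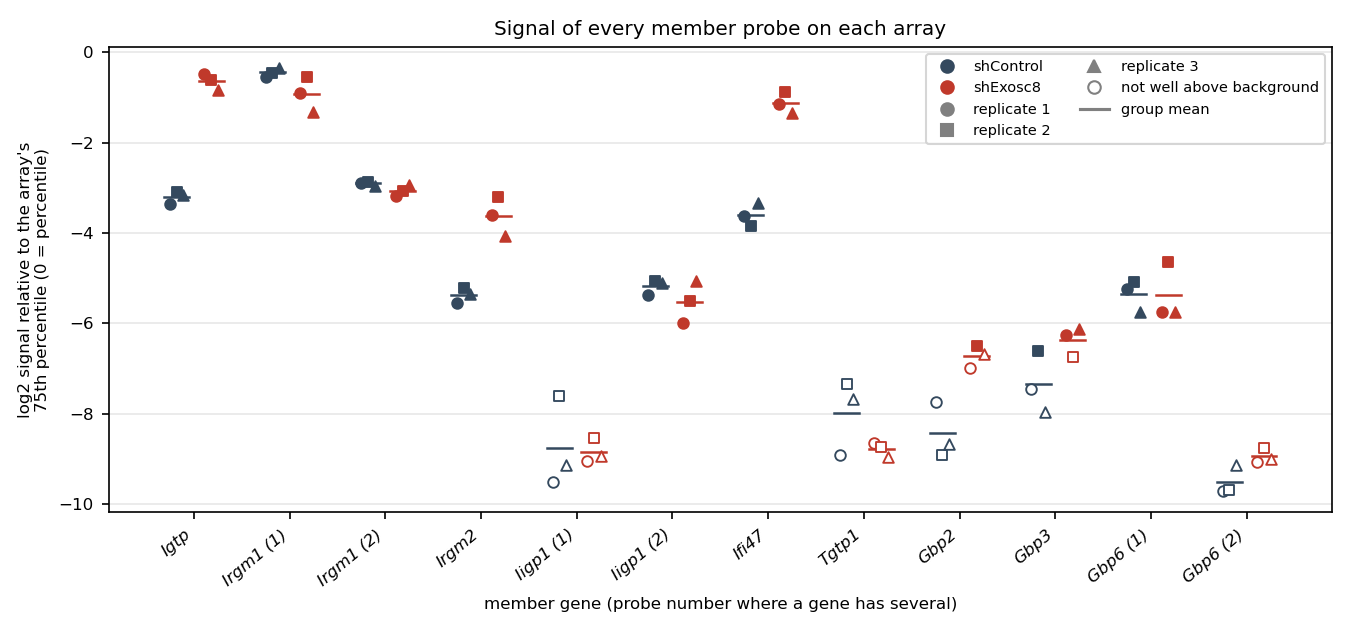
Log2 signal relative to each array's 75th percentile (vertical axis) for every probe of the 9 genes on each of the 6 arrays; red is shExosc8, dark blue shControl, symbols mark the replicate, lines the group means, and open symbols values not well above background. Igtp, Irgm2 and Ifi47 have all red points above all blue ones, while most GBP points are near or under the background limit; heights of different probes are not comparable.

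The probe-level fit gave the same picture as the gene-level one. Of 12 probes 7 were tested, 3 rose and 4 did not pass, against 27.8% of all probes tested that passed and 14.7% that rose. The groups were apart for 4 of the 6 measured genes, Igtp, Irgm2, Ifi47 and, narrowly, Irgm1. Over all genes 51.6% had groups that did not overlap, and in 23.2% shExosc8 was the higher group.

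**Figure D3:**
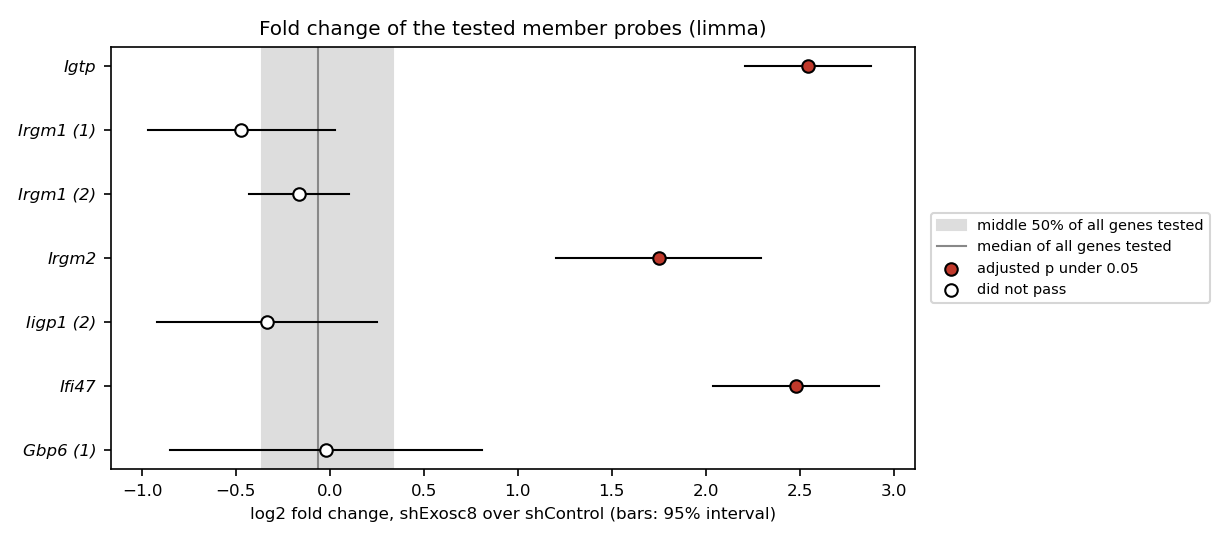
Log2 fold change of shExosc8 over shControl (horizontal axis) for the 7 tested probes, with bars for the 95% interval of limma and filled points for an adjusted p under 0.05; the grey band is the middle 50% of all genes tested. Igtp, Ifi47 and Irgm2 stand far to the right of the band, and the intervals of the other 4 probes include 0.

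The fitted size of the response varied among the members, though 3 arrays against 3 are too few for any pair to pass the exact test. Igtp and Ifi47 rose by nearly the same amount. On the log2 scale the response of Igtp minus that of Ifi47 was 0.07 (SE 0.21, 95% interval -0.52 to 0.66, exact permutation p = 0.9, n = 3 and 3). The fitted rise of Irgm2 was smaller than that of Igtp by 0.80 (SE 0.19, 95% interval 0.26 to 1.34). The Irgm2 probe was dimmer, with a control mean of -5.37 against -3.20, and printed on 1 spot. Whether dimness lowered its fold change was not tested. For Igtp against Irgm2 the exact permutation p was 0.1, the smallest that 3 arrays against 3 allow, and 0.136 after adjustment over the 15 pairs of members. Igtp and Irgm1, both regulators, differed in response by 3.02 (SE 0.19, 95% interval 2.50 to 3.54, exact permutation p = 0.1), and Igtp minus Irgm1 was higher on every shExosc8 array than on any control. These differences are taken within each array and do not depend on the constant subtracted from it. They do change with other processing. With normexp and the 75th percentile, the log2 fold change was 2.42 for Igtp and 1.35 for Irgm2.

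The members are set here beside the promoters shown, as a description with no test. Only Igtp, Irgm2, Ifi47 and Irgm1 were both measured and shown, too few to tell whether the motifs go with the rises. Of those that rose, Igtp and Irgm2 hold the adjoining GAS and ISRE matches, and Ifi47, which rose as much as Igtp, holds neither in the window searched. Irgm1 holds 2 ISRE matches and did not pass the test. It is the only measured member without a call that can be compared here, because the promoters of Iigp1 and Gbp6 are not shown. The pair of motifs at that spacing is rare, found in 5 of 32851 promoters of 300 bases (0.0152%), those of Gm12185, Igtp, Irgm2, Tgtp1 and Tgtp2. Of these 3 were measured, and Igtp, Irgm2 and Tgtp2 all rose. The spacing was read from the promoters of Igtp and Irgm2 themselves, so Tgtp2, whose call was lost in 5 of 6 fits with 1 array left out, is the only further gene. The Tgtp1 probe, which belongs to Tgtp2 as well by accession, was not well above background on any array. It therefore gave no second reading of the Tgtp2 rise. Around the motifs, Igtp and Irgm2 were identical at 77 of 80 aligned bases, and Igtp and Tgtp1 at 42 of 80. Over all promoters 3.44% held the ISRE core and 8.3% the GAS letters. Of 364 measured genes outside the members with an ISRE core match, 79 rose (21.7%) and 54 fell. With the GAS letters 156 of 854 rose (18.3%), and with both motifs 11 of 50 (22.0%). Of all 10144 measured genes with a listed promoter 16.3% rose.

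Igtp and Irgm2 are next to each other in the RefSeq gene order, which was used for order only. The nearest measured genes outside the lists did not pass the test on either side. Mrpl22, a mitochondrial ribosomal protein gene, gave a log2 fold change of -0.33 (limma adjusted p = 0.103), and Zfp692 gave 0.06 (0.752). Ifi47 lies beside Tgtp2 and Tgtp1. The nearest measured genes that are in none of the lists, 9930111J21Rik1 and Btnl9, gave 0.15 (limma adjusted p = 0.537) and 1.23 (0.0581). Whether 9930111J21Rik1, which lies next to Tgtp1, is itself an IRG gene was not checked. The neighbour of Irgm1, Trim7, rose (0.70, adjusted p = 0.036) while Irgm1 did not. These neighbours were looked up after the members' values had been seen.

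Among 17 other listed IRG and GBP genes on the array, 6 were measured, 2 rose and 0 fell, with a median log2 fold change of 0.085. Gbp9 rose (1.27 ± 0.28, SE, limma adjusted p = 0.0207). So did Tgtp2, the twin of Tgtp1, by less (0.55 ± 0.15, adjusted p = 0.0352), though the probe shared by accession with Tgtp1 was below background on all 6 arrays. Neither call was firm. Gbp9 lost it without shExosc8 replicate 1 or 2 or shControl replicate 1 or 3 (adjusted p up to 0.077), and Tgtp2 without any array but shExosc8 replicate 3 (up to 0.119). Irgq (-0.39, adjusted p = 0.132), Gbp5 (0.34, 0.246), Gbp7 (-0.29, 0.364) and Gbp10 (-0.17, 0.467) did not pass. A further 8 of the 17, Gbp4, Gbp8, Gbp11 and Gbp2b among them, were below background on all 6 arrays.

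The very large inducible GTPases had the highest median of the 7 lists. All 3 measured genes of that group rose, with a median log2 fold change of 3.753. Gvin1 rose 16.1-fold (4.01 ± 0.21, SE, limma adjusted p = 0.000343), Gm1966 by 3.75 and Gm8995 by 3.66 on the log2 scale. The latter pair was above background on 3 of 3 shExosc8 arrays but on 2 of 3 control arrays. Both therefore entered the test only through the group in which they were high, and the median is the value of Gm1966. Only Gvin1 was above background on all 6 arrays. The 3 genes belong to 1 gene family, and whether their probes share signal was not tested. Mx1, the antiviral Mx GTPase, was below background on all 6 arrays, and Mx2 was too dim to test.

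Upstream of the members, the interferon-gamma gene Ifng, Ifnb1, Ifna4 and Ifne were below background on all 6 arrays. Of 9 measured ligand and receptor genes 2 rose and 0 fell. Ifnl3, a type III interferon, rose 3.01-fold (1.59 ± 0.22, SE, limma adjusted p = 0.0047). Ifna1 rose by 0.80 (adjusted p = 0.0319), a call lost without shExosc8 replicate 1 or 2 or shControl replicate 1 or 3 (adjusted p up to 0.108). Ifna5 (0.48, adjusted p = 0.0515) and Ifna2 (-0.15, 0.717) did not pass. The measured receptor genes gave values that did not pass either, Ifngr1 0.03 (0.867), Ifngr2 0.27 (0.216), Ifnar1 0.46 (0.443), Ifnar2 0.62 (0.152) and Il10rb 0.09 (0.518). A further receptor gene, Ifnlr1, was above background on 2 of 3 arrays in each group and was too dim to be tested.

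Of 19 measured genes of interferon signal transduction 4 rose and 1 fell, with a median of -0.102 against -0.061 for all genes. Irf1, an interferon-induced factor that binds ISRE-like elements, rose by 1.18 ± 0.12 (SE, limma adjusted p = 0.00214). Usp18, which removes Isg15 and dampens type I receptor signalling, rose by 1.32 (adjusted p = 0.00967), and the phosphatase Ptpn11 by 1.69 (0.000828). Irf8, a factor of myeloid cells, rose by 1.51 (0.0135), a call lost without shExosc8 replicate 1 or shControl replicate 3 (up to 0.0586). Jak1 (-0.36, adjusted p = 0.0526), Jak2 (0.08, 0.634), Stat2 (-0.26, 0.335) and Irf9 (-0.28, 0.166) did not pass.

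Other interferon targets moved in both directions. Of 23 measured interferon-gamma type targets 8 rose and 4 fell, with a median of 0.329. Casp4, an inflammatory caspase that acts with GBP proteins, rose 8.57-fold (limma adjusted p = 0.00112, n = 3 and 3). Casp1, below background in all controls, was at least 3.55-fold higher than the controls' detection floor (adjusted p = 0.00517), and the nucleoside enzyme Upp1 rose by 1.36 (0.00994). Psme1, a proteasome activator subunit, fell by 0.91 on the log2 scale (0.00362). Of 27 measured type I targets 12 rose and 2 fell, with a median of 0.237. Among them the 2'-5'-oligoadenylate synthetase-like gene Oasl2 rose 34.0-fold, the antiviral enzyme Rsad2 25.1-fold, the ubiquitin-like modifier Isg15 9.94-fold and Ifi27l2a 3.38-fold (adjusted p of 0.00057 to 0.00111, limma). The 2 that fell were the virus tether Bst2, to 49.9% of control (adjusted p = 0.00341), and the antiviral kinase Eif2ak2, to 35.0% (0.00323).

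**Figure D4:**
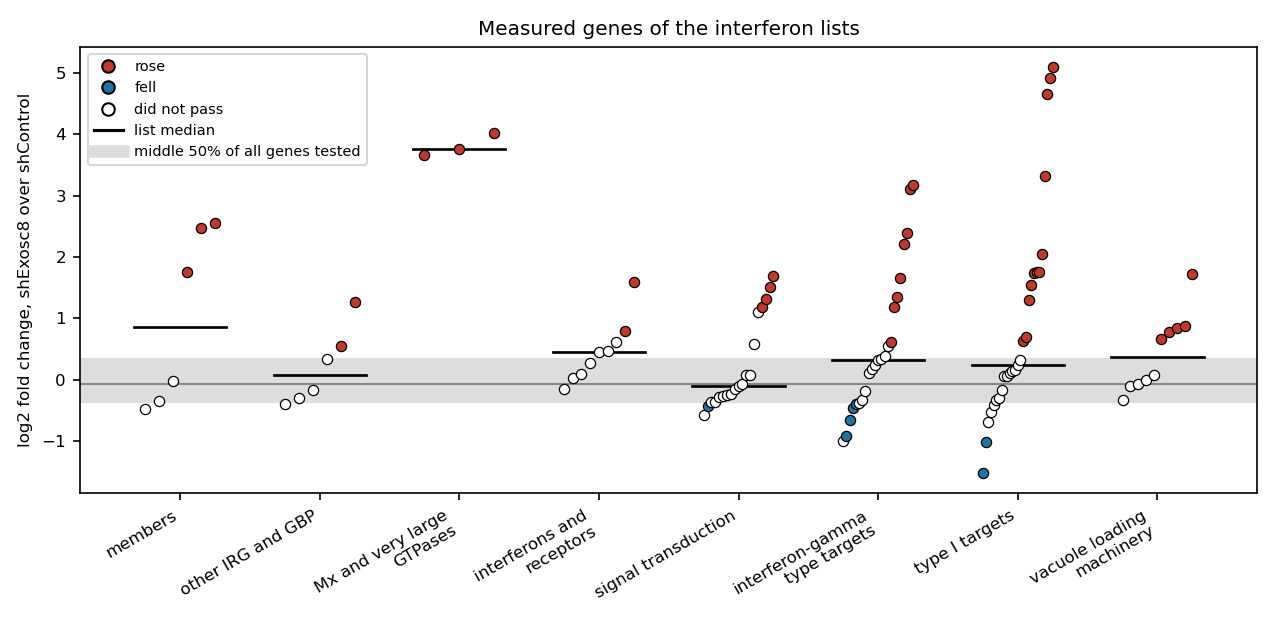
Log2 fold change of shExosc8 over shControl (vertical axis) for each measured gene of the members and of 7 lists. The last list is the vacuole loading machinery, which was not listed as interferon-regulated. Red points rose, blue fell and open points did not pass. Bars are list medians, and the grey band is the middle 50% of all genes tested. The members split into 3 that rose and 3 near or below 0, and the very large GTPases have the highest median. Of these large GTPases, Gm1966 and Gm8995 were tested only through shExosc8.

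The autophagy-type conjugation machinery loads IRG and GBP proteins onto vacuoles, and 5 of its 10 measured genes rose and 0 fell, with a median of 0.37. The ubiquitin-like Gabarapl2 rose by 1.72 ± 0.24 (SE, limma adjusted p = 0.0052). Map1lc3b (0.78, adjusted p = 0.0129), Gabarap (0.84, 0.0275) and Gabarapl1 (0.67, 0.0206) rose by less. Map1lc3b lost its call without shExosc8 replicate 1 or shControl replicate 1 or 3, Gabarap without shExosc8 replicate 1 or 2 or shControl replicate 1 or 3, and Gabarapl1 without any array but shExosc8 replicate 3. Their adjusted p then reached 0.0566, 0.0959 and 0.0791. The enzymes Atg3 and Atg7 and the conjugate components Atg5, Atg12 and Atg16l1 lay between -0.33 and 0.07 and did not pass. At an unadjusted p under 0.05, 1 gene of this list was lower (Atg12). The other IRG and GBP genes, the very large GTPases and the ligands and receptors had 0 lower. By the same measure signal transduction had 3 lower and 6 higher. The interferon-gamma type targets had 5 lower and 9 higher, and the type I targets 5 lower and 12 higher. The 7 lists together, this one included and the members left out, held 97 measured genes. Of these 36 rose and 7 fell, against a background of 16.0% and 13.8%. Some of the 36 were measured only through shExosc8, as Casp1 was. Among genes well above background on all 6 arrays, 31 of 87 list genes rose and 12 fell, against 2738 and 2684 of all 16218. Scaled by the percentile over all probes, 34 list genes rose and 16 fell, against 2650 and 4490 of all 18228.

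Across the 6 arrays the 3 members that rose shared a profile, high on shExosc8 replicates 1 and 2, lower on shExosc8 replicate 3 and low on all controls. The genes outside the members with the nearest centred profile, by root mean square difference over 6 arrays, were Hcst (0.071), Dapp1 (0.073), Gchfr (0.078), Tbkbp1 (0.105) and Ptpn18 (0.108, in log2 units). The members themselves lay further from their own mean profile, at 0.171 for Ifi47, 0.183 for Igtp and 0.282 for Irgm2. This is a description over 6 arrays that share 1 slide, with no test.

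The members are well known in macrophages and lymphocytes, so the markers of other cell types are given beside them. All 14 erythroid markers on the array were above background in every control. So were all 19 megakaryocyte markers and 16 of 17 neutrophil and monocyte markers, so detection alone does not tell these lineages apart. The summed signal of the erythroid markers, in units of the array's 75th percentile, was 441 to 686 in shExosc8 and 333 to 393 in shControl. The globin probes add most to that sum. Of the 14, 4 rose and 1 fell (Epor, a call lost with any of the 6 arrays left out, at a limma adjusted p of 0.056 to 0.131), and 9 did not pass. Of 24 macrophage markers on the array 11 were measured, 8 rose and 0 fell, and the sum was 2.50 to 2.91 against 1.19 to 1.48. The 8 were Csf1r, Cd68, C1qb, Mpeg1, Cx3cr1, Lyz2, Tyrobp and Ctss. Apart from Cx3cr1, their log2 fold changes ran from 0.50 (Cd68) to 2.52 (Ctss). Cx3cr1 was below background in all controls and was tested only through shExosc8. It was at least 3.82-fold higher than the controls' detection floor. Csf1r, Cd68, C1qb and Cx3cr1 lost their call in 4 or 5 of 6 fits with 1 array left out. Adgre1, Marco and Slc40a1 did not pass. C1qc was above background on 2 of 3 shExosc8 arrays and Mrc1 on 1 of 3, each on 0 of 3 controls. Vcam1, Timd4, Mertk and Vsig4, markers of resident macrophages, were below background on all 6 arrays. Of 16 measured neutrophil and monocyte markers 15 rose, at sums of 51.1 to 65.1 against at most 17.5 in shControl, and all 19 megakaryocyte markers rose, at 78.5 to 115 against 9.73 to 14.0. Of 20 lymphoid markers on the array 7 were measured and 1 rose, at 1.06 to 1.14 against 0.915 to 0.944. It was Vpreb3, a call lost in 5 of 6 fits with 1 array left out. Cd3e, Cd4, Nkg7, Prf1 and Cd79a were above background on all 6 arrays and did not pass. Il7r was above background on 2 of 3 shExosc8 arrays and 0 of 3 controls. Cd3d, Cd8a, Klrb1c, Tbx21 and Ms4a1 were among those below background on all 6 arrays. Of the mast cell markers 5 of 8 measured rose, of the hepatocyte markers 4 of 8, and of the endothelial and stromal markers 2 of 5, with 1 lower. The part of other cell types in the rise of Igtp, Ifi47 and Irgm2 was not tested.

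The 3 rises did not rest on the arrays that stood apart. Without shExosc8 replicate 3, the weakest knockdown, and shControl replicate 2, the array with most spots above background, the log2 fold change was 2.70 for Igtp, 2.47 for Ifi47 and 2.04 for Irgm2. Leaving out 1 array at a time gave 2.46 to 2.64 for Igtp, 2.36 to 2.61 for Ifi47 and 1.54 to 1.97 for Irgm2, all still called by limma. The authors' deposited table of their own comparison gave 2.41 for Igtp (adjusted p = 0.00269), 2.22 for Ifi47 (0.00725) and 1.37 for Irgm2 (0.0156).

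**Figure D5:**
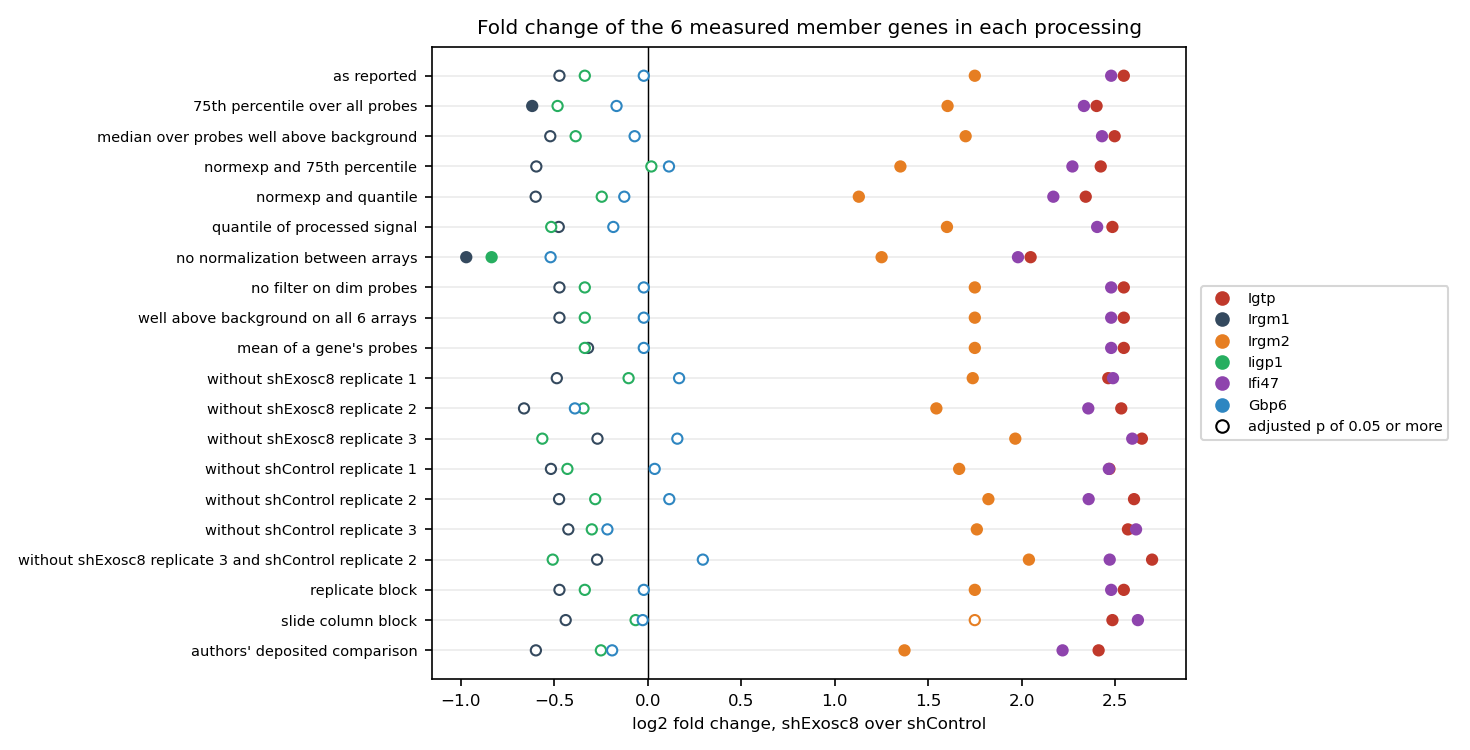
Log2 fold change of shExosc8 over shControl (horizontal axis) of the 6 measured members under each way of processing (vertical axis), with filled points for an adjusted p under 0.05. Igtp and Ifi47 stay at 1.98 or more throughout and Irgm2 at 1.13 or more, with Irgm2 open under the slide column block, while Irgm1, Iigp1 and Gbp6 lie between -0.97 and 0.30.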

How the data were processed

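Cy3-labelled RNA of 3 shExosc8 and 3 shControl samples was hybridised to 6 one-colour arrays on 1 slide. The deposited spot intensity values and background flags came from Agilent Feature Extraction 10.7.3.1, which subtracted background, per the file headers. Fold changes on the log2 scale and p-values of the authors' own comparison were deposited too. The submitters' processing notes name limma for them, and how arrays were normalized there is not stated.

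Flagged outlier spots were dropped, spots of 1 probe averaged, and each array's 75th percentile of log2 intensity, over the 21615 probes (38.8%) well above background on all 6 arrays, was subtracted. A probe entered the fit if every array of 1 group or the other showed it well above background (24836 probes), and the brightest probe stood for each of 18228 genes. limma 3.58.1 in R 4.3.3 (lmFit, eBayes, two-sided) was used with Benjamini-Hochberg adjustment at 0.05, after a check on simulated data. Probe coordinates are on mm9. The number of arrays limits the precision.

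Named are all members, Exosc8, the 4 genes of each list with the smallest p, measured ligands and receptors, and the 5 most alike profiles. Others were chosen after their values were seen. Members and lists were chosen with earlier results of these data known. Same-numbered samples deviated together at r = 0.052, 0.21 and 0.284, so the numbers were not taken as pairs. The values of some single genes are left out of the text.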

Additional observations from a re-analysis of the deposited data

How the results depend on the processing

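Igtp and Ifi47 kept their direction and their call in all alternatives, and Irgm2 in all but the slide column block. The count of 3 members called became 5 genes and 6 probes with no normalization between arrays, where Irgm1 (-0.97) and Iigp1 (-0.83) were called lower and the median of all genes moved by -0.499. Values with no call changed sign with normexp and the 75th percentile (Iigp1 0.0198, Gbp6 0.11). Gbp6 also ran from -0.39 to 0.17 with 1 array left out, at 0.17 without shExosc8 replicate 1, 0.16 without shExosc8 replicate 3, 0.04 without shControl replicate 1 and 0.12 without shControl replicate 2. It was 0.30 without shExosc8 replicate 3 and shControl replicate 2 together. Of all genes 5439 were called, but 9167 with no normalization, 1815 with no filter, 537 with the slide column block, 1319 in the authors' deposited table and 2355 (without shExosc8 replicate 1) to 8418 (without shExosc8 replicate 3) with 1 array left out. The share called upward was 53.7% as reported, 18% with no normalization, 37.1% when all probes set the percentile, 66.9% with normexp ahead of it, 79.8% with no filter, 92.4% with the slide column block and 84.2% in the authors' deposited table. Of the 7 lists, the vacuole loading machinery included, 43 genes were called. The count was 25 with no filter, 13 with the slide column block and 18 in the authors' deposited table. It was 26 to 56 with 1 array left out, and with no normalization 26 rose and 27 fell. Exosc8 was -1.03 with the slide column block (adjusted p = 0.124) and -1.06 in the authors' deposited table (0.073), neither under 0.05 by limma, and -1.32 to -1.05 with 1 array left out. The cause of these changes was not tested. With the replicate block 5633 genes, 3 members and 47 list genes were called. Tgtp1, Gbp2, Gbp3 and 2 further probes lay near background, which limits what can be said of them.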
